A study of Mus musculus with 3 samples.

Results

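Collagen genes other than Col17a1, Col7a1, Col4a1 and Col4a2, the best known collagens of the dermal-epidermal junction, were examined in primary keratinocytes of neonatal ICR mice. The members are all genes whose symbol has the form of a collagen chain, such as Col1a1, on the Mouse Genome 430 2.0 oligonucleotide array of Affymetrix. The set is defined by these 4 omissions and not by location, since Col4a5, Col4a6 and Col18a1, which also encode basement membrane collagens of skin, remain in it. This gave 38 collagen genes out of 18193 genes that have a probe set with 1 gene symbol. The 38 genes have 77 probe sets, 26 of the genes have more than 1, and the brightest over all arrays was taken for each gene. There was 1 array of WT keratinocytes and there were 2 arrays of RASSF9-/- keratinocytes, called KO1 and KO2 here and array 1 and array 2 in the plots. RASSF9-/- mice are homozygous for an insertion of the Epstein-Barr virus LMP1 transgene, which removed part of an intron of Rassf9, so they also carry that transgene, whereas WT mice do not. All RASSF9-/- mice carry the same insertion. Each sample was 1 plate of cells grown in keratinocyte serum-free medium with supplements, which the methods call low in calcium and maintained for the same time in all samples. The sample descriptions instead give 24 h of culture for WT and 48 h for RASSF9-/-. If these hold, genotype cannot be told apart from the time in culture.

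Collagens are secreted or membrane proteins in which chains wind into a triple helix. Fibrillar collagens such as types I, III and V form the fibrils of the dermis and are made mainly by fibroblasts. Other classes coat those fibrils, form networks in basement membranes, build beaded filaments, or span the cell membrane. In skin, basal keratinocytes contribute mainly the collagens of the basement membrane and its anchoring structures, while dermal cells supply most of the others.

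Among the members, Col4a5 and Col4a6 encode chains of type IV collagen that occur together in the epidermal basement membrane, and the genes lie head to head on chromosome X. Their RefSeq start sites are 1343 bases apart in GRCm38.p6 and point away from each other. The pair is shown because Col4a5 had the smallest p of the members and Col4a6 is its neighbour, and Col1a2 is shown as a fibrillar chain with signals below WT on KO1 and KO2. For these 3 genes the 250 bases before the start site are given 5′ to 3′ on the strand of the gene. Capitals mark CCAAT, the CCAAT box, and GGGCGG, the GC box, or their reverse complements. The Col4a5 window is chrX:141475169-141475418 on the plus strand, that of Col4a6 is chrX:141474077-141474326 on the minus strand and that of Col1a2 is chr6:4505368-4505617 on the plus strand.
Col4a5: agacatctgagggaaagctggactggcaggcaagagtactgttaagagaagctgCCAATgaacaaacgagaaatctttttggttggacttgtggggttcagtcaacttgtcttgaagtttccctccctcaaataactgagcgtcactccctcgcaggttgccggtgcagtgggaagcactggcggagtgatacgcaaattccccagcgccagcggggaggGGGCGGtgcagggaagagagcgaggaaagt
Col4a6: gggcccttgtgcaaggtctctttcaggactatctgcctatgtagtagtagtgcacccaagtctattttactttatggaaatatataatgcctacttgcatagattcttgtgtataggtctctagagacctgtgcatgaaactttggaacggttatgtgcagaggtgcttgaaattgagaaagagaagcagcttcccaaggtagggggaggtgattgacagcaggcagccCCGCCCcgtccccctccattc
Col1a2: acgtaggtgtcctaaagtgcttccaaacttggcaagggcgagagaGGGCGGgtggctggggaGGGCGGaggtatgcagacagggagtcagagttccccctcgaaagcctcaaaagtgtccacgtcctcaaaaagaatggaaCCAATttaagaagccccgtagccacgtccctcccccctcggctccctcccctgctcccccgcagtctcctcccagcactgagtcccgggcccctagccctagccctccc

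The Col4a5 and Col1a2 windows each hold 1 CCAAT box, and the Col4a6 window holds none on either strand. Col4a5 and Col4a6 each have 1 GC box and Col1a2 has 2. Over all 32851 promoter windows of the same length, 33.8% hold a CCAAT box and 32.7% a GC box, so such matches are common and describe the letters only. Of the 38 members, 29 matched an entry of the RefSeq promoter table by symbol.

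Signals are MAS5 intensities on a linear scale, and the trimmed mean of each array is the same. The brightest of 27 control probe sets made for Bacillus subtilis transcripts had a signal of 78.4, which is called the bacterial limit here. Signals under it were read as background. Where 3 signals of a gene stand together, they are those of WT, KO1 and KO2 in this order. Rassf9 itself had 478 on WT, 59.6 on KO1 and 120.2 on KO2, lower in both libraries labelled RASSF9-/-. The keratinocyte genes Krt5 and Krt14 had signals between 27759.7 and 38752 on the 3 arrays. WT and KO1 have the same array date, unlike KO2, so KO1 minus WT is the difference within a date. With a single WT array, the test takes the spread of WT from the RASSF9-/- pair, and precision is limited by having 3 arrays. As these are bulk samples, fewer cells of a type and less RNA per cell cannot be told apart.

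Many of the 38 collagen genes had signals in the background on some or all arrays. On all 3 arrays 17 of the 38 genes were above the bacterial limit, 4 genes were above it on 2 arrays and 4 on 1 array, and 13 were under it on every array (34.2%, against 28.2% of all genes). Genes whose mean log2 signal reached the 50th percentile of all probe sets entered the test, and 18 of the 38 did. None passed at an adjusted p under 0.05 from limma, where 9 of all 11089 genes tested were higher (0.0812%) and 0 were lower (0.0%). At an unadjusted p under 0.05 from limma there was 1 collagen gene, Col4a5, beside 345 genes higher and 270 lower among all tested. By limma without its intensity trend 0 collagen genes passed, and Col6a3 and Col4a5 had an unadjusted p under 0.05. By the methods' t-test 0 passed, and those under 0.05 were Col6a3 and Col5a1, not Col4a5. The shares of all genes under 0.05 in these tests were not counted.

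Of the 38 genes, 20 lay below WT on both RASSF9-/- arrays (52.6%, against 31.8% of all 18193 genes), 10 lay above it on both (26.3%, against 33.4%) and 8 lay on opposite sides of WT. The same WT array enters both differences. In the background on every array were Col9a1, Col9a2, Col9a3, Col10a1, Col19a1 and Col23a1 among the lower genes. Among the higher ones these were Col2a1, Col4a3, Col6a5, Col13a1, Col24a1 and Col25a1. Some of the lower genes were close to WT on KO1, with log2 differences of -0.018 for Col27a1, -0.026 for Col16a1 and -0.047 for Col18a1. The median log2 difference from WT was -0.28 over the 38 genes, with -0.051 for KO1 and -0.35 for KO2. Over all genes the medians were -0.01, 0.08 and -0.06. With every signal under the bacterial limit raised to it, the median of the 38 genes was 0, as it was over all genes. The 13 members under the limit on every array are then 0 by construction, so this median says little about the brighter ones. Of the KO arrays, KO2, which has another date, had the lower median.

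By size, 3 of the 38 genes were at least 2-fold lower on both RASSF9-/- arrays (7.89%, against 4.92% of all genes). These were Col4a5, Col6a3 and Col9a3, and Col9a3 was in the background throughout. At least 2-fold higher on both arrays were 5 of the 38 (13.2%, against 7.01% of all genes), namely Col2a1, Col4a3, Col8a2, Col22a1 and Col24a1. All 5 had a WT signal in the background, and Col2a1, Col4a3 and Col24a1 stayed there on every array. With signals raised to the bacterial limit the counts were 2 lower and 0 higher, against 1.53% and 1.40% of all genes. The plot of the changes on both arrays shows where each gene lay.

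**Figure D1:**
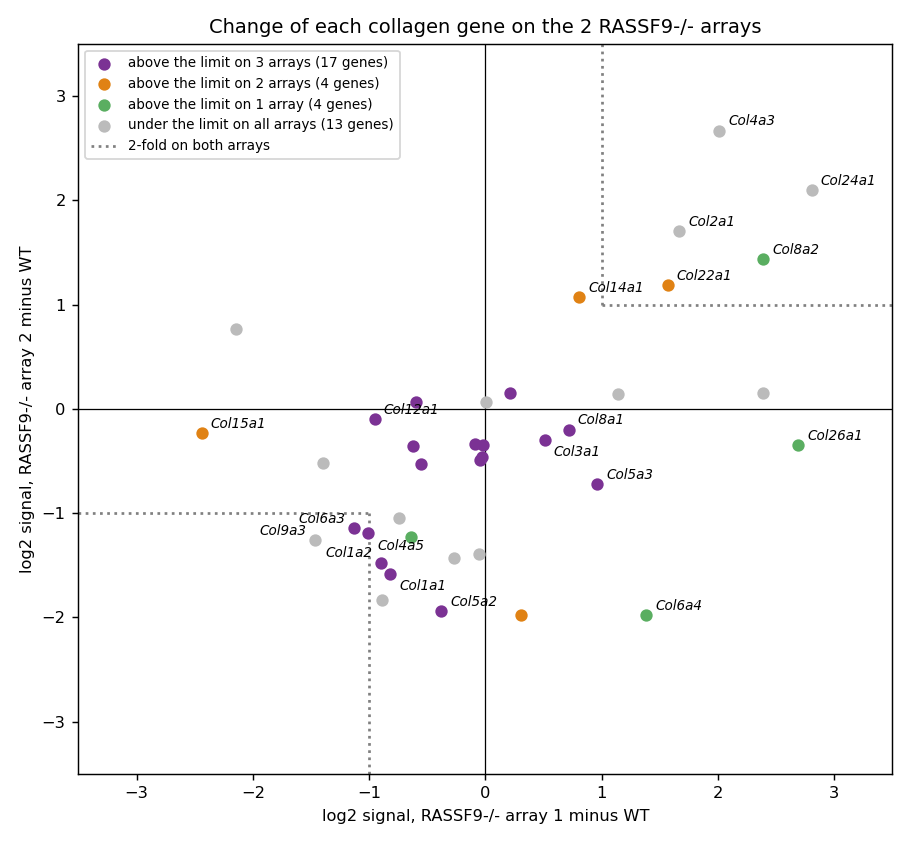
Log2 difference from WT of the 38 collagen genes on KO1 (horizontal axis) and KO2 (vertical axis), 1 point per gene, coloured by the number of arrays above the bacterial limit of 78.4, with dotted lines at 2-fold on both arrays. Of the 17 genes above the limit on every array, Col4a5 and Col6a3 reach the lower left corner and none reaches the upper right.

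Type I collagen, the main fibril of dermis, tendon and bone, is built from chains of Col1a1 and Col1a2, and both chains had lower signals on each RASSF9-/- array. Col1a1 had a signal of 429 for WT, 243 for KO1 and 143 for KO2. Col1a2 had 460.0 for WT, 247 for KO1 and 166 for KO2. For both genes WT was highest and KO2 lowest. With 1 WT array, 31.8% of all genes likewise lay below WT on both RASSF9-/- arrays. The log2 fold change was -1.20 for Col1a1 (SE, the standard error, 0.58, limma adjusted p = 0.973) and -1.19 for Col1a2 (SE 0.55, limma adjusted p = 0.945), and neither passed the test. A dimmer probe set of Col1a1 gave less separation, with 171, 189 and 136, and KO1 lay above WT there. Of the other probe sets of Col1a2, the brighter was above the limit on 2 arrays, with 97.5 for WT, 104 for KO1 and a background signal for KO2. The brightest probe set of each gene thus had KO1 well below WT, and these dimmer ones did not.

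Type III collagen accompanies type I in extensible tissue and is encoded by Col3a1. Its signals of 106 for WT, 151 for KO1 and 86.1 for KO2 were above the bacterial limit. WT lay between the RASSF9-/- arrays, and the log2 fold change was 0.11 (SE 0.68). By the brightest probe sets Col3a1, unlike Col1a1 and Col1a2, therefore did not lie below WT on both arrays. Its dimmer probe set, in the background on every array, did, with log2 differences of -2.748 for KO1 and -0.189 for KO2. The dimmer probe sets of Col1a1 and Col1a2 given above had KO1 above WT. The difference between these genes was not tested.

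Type V collagen is incorporated into type I fibrils and limits their width, and its 3 chains had different patterns over the arrays. Col5a2 had signals of 3091 for WT, 2375 for KO1 and 805 for KO2. WT was highest, and KO2 accounted for most of the difference, with a log2 difference of -1.94 against -0.38 for KO1. Over both arrays the log2 fold change was -1.16 (SE 0.64, limma adjusted p = 1.00), and the other probe set gave 364, 216 and 131, the same order. Col5a1 had signals of 293 for WT, 199.9 for KO1 and 203 for KO2. Its RASSF9-/- arrays lay close together below WT, with a log2 fold change of -0.54 (SE 0.53, limma adjusted p = 1.00). The probe sets of Col5a1 disagreed in size, since one gave 213, 208 and 199 and another 119 for WT with KO1 and KO2 in the background. Col5a3 had 254 for WT, 493 for KO1 and 154 for KO2, so WT lay between the RASSF9-/- arrays.

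The other fibrillar chains were dim or close to WT. Col27a1, a fibrillar collagen of developing cartilage, had signals of 284 for WT, 280.4 for KO1 and 224 for KO2. WT and KO1 were nearly equal, and the log2 fold change was -0.18 (SE 0.52). A second probe set was lower on both, with 215, 145 and 119.7. Col11a2, a chain of the cartilage fibril, had 87.9 for WT and 109 for KO1 and was in the background on KO2, at 22.3. Col2a1, Col11a1 and Col24a1, known from cartilage and bone, were in the background on all arrays, with signals from 5.3 to 45.2. Of 11 fibrillar genes, 7 entered the test and 0 passed.

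**Figure D2:**
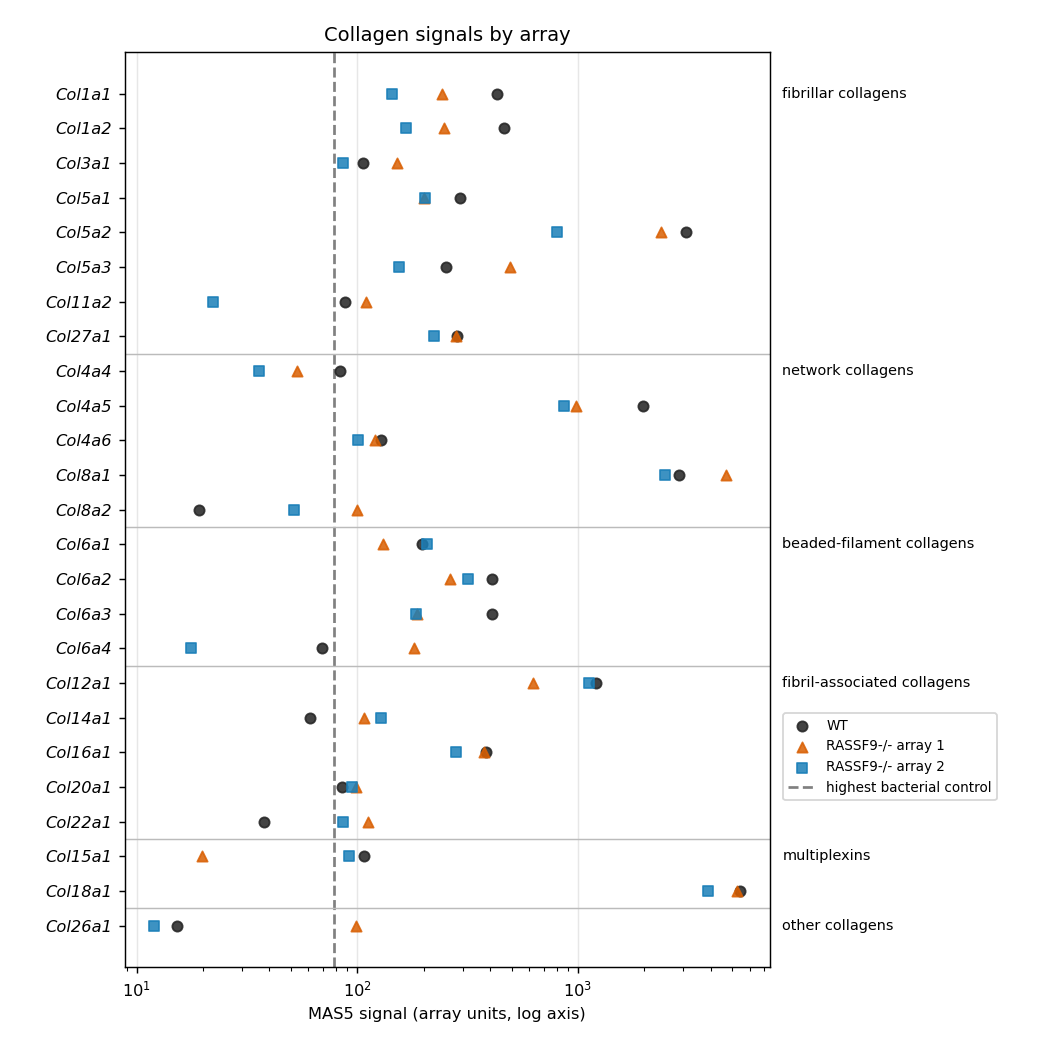
MAS5 signal (array units, log axis) of the 25 collagen genes above the bacterial limit on at least 1 array, grouped by class, each array having its own marker and the dashed line standing for the limit of 78.4. Col1a1, Col1a2, Col4a5 and Col6a3 have WT to the right of both RASSF9-/- markers, while for Col3a1, Col5a3 and Col8a1 WT lies between them.

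Network collagens include the type IV chains of basement membranes and the short-chain types VIII and X. Col4a5 had the smallest unadjusted p of the members, 0.0261 from limma. Its signals were 1973 for WT, 979.9 for KO1 and 863 for KO2. Both RASSF9-/- arrays were near each other and about equally far below WT, with log2 differences of -1.01 and -1.19. The log2 fold change was -1.10 (SE 0.38, limma adjusted p = 0.770), which did not pass. A second probe set gave 764, 332 and 360.4, a log2 difference of -1.14, so both probe sets of Col4a5 were at least 2-fold lower on each array.

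Col4a6, the head-to-head neighbour of Col4a5, had signals of 128 for WT, 120.1 for KO1 and 101 for KO2. These values were close together and not far above the bacterial limit, and the log2 fold change was -0.21 (SE 0.62). The difference between the changes of the neighbours was not tested. Col4a4, a chain of the glomerular basement membrane, had 83.6 for WT and was in the background on KO1, at 53.5, and KO2, at 35.7, at least 1.07-fold lower. Its partner Col4a3 was in the background on all 3 arrays.

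Col8a1, a chain of the hexagonal networks under endothelia, had signals of 2859.6 for WT, 4694 for KO1 and 2489 for KO2. KO1 was highest and KO2 lowest, so the groups overlapped. The log2 fold change was 0.26 (SE 0.46). Its 3 probe sets gave like values for KO1, with log2 differences of 0.71, 0.68 and 0.71, and lay between -0.20 and 0.05 for KO2. Col8a2, the partner chain, had signals of 19.1, 100.2 and 51.6, above the limit on KO1 alone. As WT and KO2 were both in the background, no bound on its fold is given. Col10a1, known from hypertrophic cartilage, stayed in the background.

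Type VI collagen forms beaded filaments around cells, and its main chains are encoded by Col6a1, Col6a2 and Col6a3. Col6a3 had signals of 406 for WT, 186 for KO1 and 184 for KO2. The RASSF9-/- arrays were nearly equal and each was more than 2-fold below WT. Its log2 fold change was -1.14 (SE 0.52, limma adjusted p = 0.945). Col6a2 had 407 for WT, 264 for KO1 and 318 for KO2, and the log2 fold change was -0.49 (SE 0.49). The second probe set of Col6a2 had the same order, with 300.1, 131 and 214. For Col6a1 the signals of 197 for WT, 131 for KO1 and 206 for KO2 overlapped between groups. Differences between the chains were not tested. Col6a4, with 69.3, 181 and 17.6, was above the limit on KO1 alone, and Col6a5 was in the background.

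Fibril-associated collagens have interrupted helices and attach to the surface of fibrils. Col12a1, found in dense connective tissue, had signals of 1205 for WT, 623 for KO1 and 1127 for KO2. KO1 was low and KO2 was close to WT, opposite to Col5a2, where KO2 was the low one. The log2 fold change was -0.52 (SE 0.49). A second probe set of Col12a1 gave 345, 219 and 626, with KO2 above WT. Col16a1, which is present in dermis near the basement membrane, had 384 for WT, 377 for KO1 and 279 for KO2, a log2 fold change of -0.24 (SE 0.50).

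Col14a1, an associate of dermal fibrils, was in the background for WT at 61.2 and had signals of 107 for KO1 and 128 for KO2. Both RASSF9-/- arrays were above WT, at least 1.495-fold as a group, with a log2 fold change of 0.94 (SE 0.64, limma adjusted p = 1.00). Col22a1, known from tissue junctions, was likewise in the background for WT, at 37.8, against 112 and 86.2, at least 1.25-fold higher. Col20a1 lay just above the limit, with 85 for WT, 98.4 for KO1 and 94.6 for KO2. By their brightest probe sets Col9a1, Col9a2, Col9a3 and Col19a1 were in the background throughout. That of Col9a1 had 66.3, 25.2 and 46.4, below WT on both arrays. A dimmer one had 21.3, 42.2 and 83.9, above WT on both and above the limit on KO2 alone.

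Multiplexins carry interrupted helices and are found in basement membrane zones. Col18a1, whose end fragment is endostatin, had signals of 5439.7 for WT, 5267 for KO1 and 3876 for KO2. WT and KO1 were close, KO2 was lowest, and the log2 fold change was -0.27 (SE 0.35, limma adjusted p = 1.00). The second probe set of Col18a1 had the same order, with 5379, 4699 and 3113. Col15a1 had 108 for WT and 91.5 for KO2 and was in the background on KO1, at 19.8. Transmembrane collagens other than Col17a1, which are Col13a1, Col23a1 and Col25a1, were in the background on every array. Col26a1, with 15.3, 98.6 and 12, was above the limit on KO1 alone. Col6a6 and Col28a1 had no probe set with 1 symbol.

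**Figure D3:**
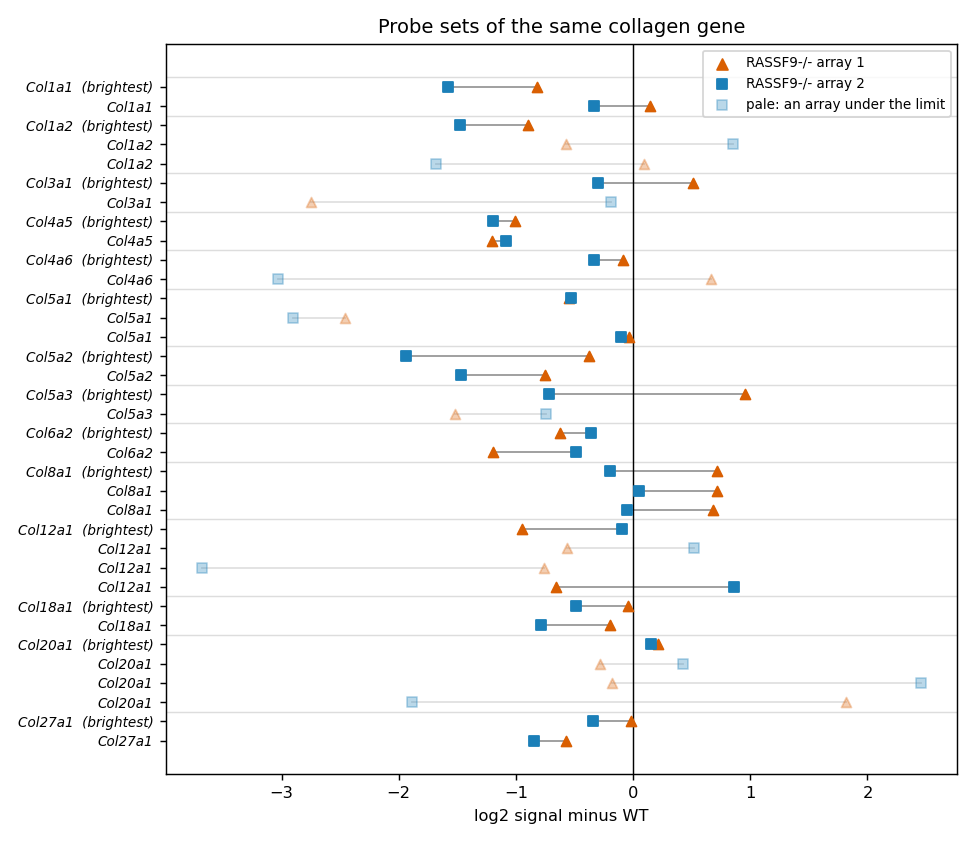
Log2 difference from WT of every probe set of 14 collagen genes with several probe sets and at least 1 above the bacterial limit on all arrays, with a triangle for KO1, a square for KO2 and pale markers for probe sets under the limit on any array. Both probe sets of Col4a5 lie near -1 on both arrays, and those of Col1a1 and Col5a1 differ from each other.

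Genes that modify, fold and cross-link collagen chains were mostly measurable. Of 30 such genes listed, 26 had a probe set, 22 were above the limit on all arrays, 22 entered the test of limma and 0 passed, with 0 at an unadjusted p under 0.05. On both RASSF9-/- arrays 9 were lower (34.6%, against 31.8% of all genes) and 8 higher (30.8%, against 33.4%), shares near those of all genes. The median log2 difference was -0.05 over 26 genes, and no gene was 2-fold from WT on both arrays. P4ha1, a catalytic subunit of prolyl 4-hydroxylase, had signals of 718 for WT, 381 for KO1 and 359 for KO2. It lay below WT by a similar amount on both arrays (log2 fold change -0.95, standard error 0.45, adjusted p = 0.959 from limma). P3h4 had 718, 417 and 444, and Plod1, a lysyl hydroxylase, had 257, 158 and 159, each lower on both. Loxl3, a lysyl oxidase of the cross-linking family, had 115, 167 and 161, higher on both. Serpinh1, the collagen chaperone HSP47, had 5602 for WT, 4673 for KO1 and 2861 for KO2, with KO2 lowest as for Col5a2.

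Among receptors and binding partners of collagen, 2 integrin chains lay on opposite sides of WT. Of 18 genes listed, 17 had a probe set, 8 entered the test of limma and 0 passed, with Itga2 alone at an unadjusted p under 0.05. On both RASSF9-/- arrays 6 were lower and 6 higher (35.3% each), near the 31.8% and 33.4% of all genes. Itga2, the integrin chain through which keratinocytes bind type I collagen, had signals of 307 for WT, 904 for KO1 and 649 for KO2. Both RASSF9-/- arrays were more than 2-fold above WT, with a log2 fold change of 1.32 (standard error 0.46, unadjusted p = 0.0277 and adjusted p = 0.770 from limma). Itga1, the integrin chain typical of mesenchymal cells, had 229 for WT, 82.3 for KO1 and a background signal of 10.2 for KO2, at least 2.85-fold lower. Lum, a proteoglycan of fibrils, had 21.1, 106 and 48.0, above the limit on KO1 alone. Prelp, with 7.7, 78.3 and 44.6, and Tnxb, with 8.9, 65.2 and 18.8, were in the background throughout. Fn1, the fibronectin gene, had 14758 for WT, 12866 for KO1 and 2919 for KO2, with KO2 the low array as for Col5a2.

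Since dermal cells make many of these collagens, markers of other cell types are given beside them. Of 14 fibroblast markers, 4 were in the background on all arrays, namely Dpt, Twist1, Fap and Mfap5, and 7 were above the limit on all arrays. Their summed signal was 2913 for WT, 5215 for KO1 and 1741 for KO2. The brightest of them, Postn, had 1438, 3687 and 471. Of the 14, 4 lay below WT on both RASSF9-/- arrays (28.6%, against 31.8% of all genes), 3 above it on both (21.4%, against 33.4%) and 7 on opposite sides, and the median log2 difference was -0.056. Below WT on both were Thy1, with 364, 232 and 112, and also Pdgfra, Pdgfrb and Prrx1, which were near the limit. Above WT on both were Twist2, with 174, 186 and 209, and Lum and Twist1. Dcn, with 197, 189 and 301, Fbln1, with 168, 258 and 115, and Lox, with 148, 204 and 99.2, had WT between the RASSF9-/- arrays.

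Of 7 smooth muscle and pericyte markers, 3 were above the limit on all arrays, and their summed signal was 24452 for WT against 7660.1 and 9278. Acta2, smooth muscle actin, had signals of 16866 for WT, 4892 for KO1 and 6742 for KO2. Tagln, an actin-binding protein, had 7115, 2424 and 2323, and its log2 fold change was -1.58 (SE 0.33, limma adjusted p = 0.346). Cnn1 had 201 for WT and background on both RASSF9-/- arrays, while Myh11 was in the background on all 3. Of the 7, 5 lay below WT on both RASSF9-/- arrays, namely Acta2, Tagln, Cnn1, Cspg4 and Rgs5 (71.4%, against 31.8% of all genes). Above WT on both were Des, with 39.0, 108 and 71.3, and Myh11 (28.6%, against 33.4%). The part of other cell types in the collagen signals was not tested.

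**Figure D4:**
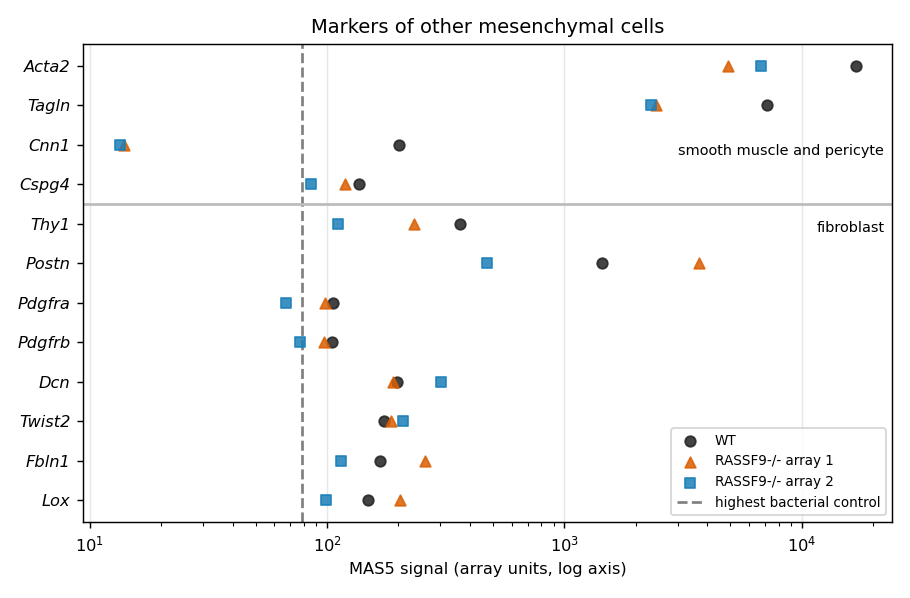
MAS5 signal (array units, log axis) of 4 of the 7 smooth muscle and pericyte markers and 8 of the 14 fibroblast markers. Each array has its own symbol and the dashed line stands for the bacterial limit of 78.4. Not shown are Des, Myh11, Lum and Twist1, above WT on both RASSF9-/- arrays, and Rgs5 and Prrx1, below it on both. Dpt, Fap and Mfap5 are also left out. Acta2, Tagln and Cnn1 have WT far to the right of both RASSF9-/- markers, whereas Dcn and Twist2 do not.

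Other cell types were covered by shorter lists. Of 8 endothelial markers, 2 were above the limit on all arrays and Pecam1, Erg, Cdh5 and Tie1 were in the background. All 7 melanocyte markers were above it, with summed signals of 29399 for WT, 24999 for KO1 and 35284 for KO2. Schwann cell markers gave 574, 600.2 and 989 over 3 genes, immune markers 693, 956 and 244 over 7 genes, and adipocyte markers 604, 645 and 249 over 4 genes. In each of these sums 1 gene was the largest on every array. For Schwann cells it was Sox10 (413, 430 and 682), which is also in the melanocyte list. For immune cells it was H2-Ab1 (421.5, 514 and 83.5) and for adipocytes Lpl (564, 536 and 169). S100b, Ptprc, H2-Aa, Cd207, Itgax, Adipoq and Cidec were in the background throughout. The presence of these cell types was not tested. Of 10 keratinocyte markers, 9 were above the limit on all arrays, with a summed signal between 114935 and 126678. In the keratinocyte list Krt1, a differentiation keratin, had 440.1 for WT and background on both RASSF9-/- arrays, and Trp63 had 3239, 1459.9 and 1543. These were the 2 of the 10 genes in this list at least 2-fold lower on both arrays, against 4.92% of all genes. Krt10, also a differentiation keratin, had 396.7, 338.5 and 530.8, with WT between the RASSF9-/- arrays. Of the 10 keratinocyte markers, 5 lay below WT on both arrays, 1 above it on both and 4 on opposite sides.

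For comparison, the brightest probe sets of the 4 left-out junction collagens all lay below WT on KO1, which has the array date of WT. The share of all genes below WT on KO1 was not counted, and their median log2 difference there was 0.08. On KO2 Col7a1 and Col4a1 lay below WT and Col17a1 and Col4a2 above it. Col7a1, the anchoring fibril collagen, had signals of 2330 for WT, 1242 for KO1 and 608 for KO2, a log2 fold change of -1.42 (SE 0.52, limma adjusted p = 0.796). Col17a1 had 9366, 3812 and 10303, with KO1 low. Col4a1, with 3803, 3034 and 3697, and Col4a2, with 2221, 1981 and 2382, lay within a log2 difference of 0.33 from WT on both arrays. A dimmer probe set of Col4a1 had 1214, 1495 and 1227, with KO1 and KO2 above WT. The difference of Col4a1 and Col4a2 from Col4a5, the other type IV chain measured well above the limit, was not tested.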

How the data were processed

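RNA from 1 WT and 2 RASSF9-/- keratinocyte cultures was measured on 1 array each. The authors deposited MAS5 signals, an intensity on a linear scale for 45037 probe sets and 64 controls, scaled to a trimmed mean of 500.003 on each array (2% removed at each end). The version of MAS5 is not given in the sources used here. The methods' GeneSpring analysis was not repeated. Log2 values were taken with no further normalization. Platform annotation gave 34945 probe sets 1 gene symbol and 932 several, which were left out. All 38 collagen symbols matched RefSeq (GRCm38.p6) by gene ID.

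For each gene the brightest probe set by mean log2 signal was taken, and those at or above the 50th percentile, a signal of 82.7, entered the test across all 11089 genes. The test was two-sided, from limma (version 3.58.1 under R version 4.3.3, lmFit followed by eBayes, prior variance trended on mean signal), Benjamini-Hochberg adjusted over all genes, with 1 residual and 5.32 prior degrees of freedom (median). The procedure was tested on simulated data. Counts by fold and medians were made over all 38 genes without a filter and without a test. Where only arrays of the lower group lay in the background, their signals were raised to 78.4. The fold between the groups' mean log2 signals is then a lower bound.

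Signals on all 3 arrays are given for the 25 members above the bacterial limit on at least 1 array, and for up to 4 genes of the collagen processing and the receptor list, ranked by their smaller change over KO1 and KO2. Others named from those lists were chosen after their values were seen. Alternatives changed the scaling, filter, pseudocount, probe set rule, background floor, test and fold threshold, or left out an array. The members and lists were chosen with earlier results of these data known.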

Additional observations from a re-analysis of the deposited data

How the results depend on the processing

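No collagen gene passed the test under any of 9 alternatives, which were scaling by array medians, quantile normalization, omitting the filter or setting it at the 75th percentile, adding a pseudocount of 32, averaging probe sets, raising signals to the bacterial limit, dropping the intensity trend and the methods' t-test. Over all genes the 9 higher calls became 0 with quantile normalization, with raised signals and without the trend, 5 at the 75th percentile, 5 with the pseudocount, and 3 with the methods' t-test. Lower calls over all genes, 0 in the main test, did appear with scaling by array medians, with the mean of probe sets and with the methods' t-test. The log2 fold changes of the 18 tested members kept their sign in the 9 alternatives wherever the gene was tested. Only 12 of them were tested with the mean of probe sets and 5 at the 75th percentile. Col3a1 and Col5a3 were among those not tested with the mean of probe sets. Their dimmer probe sets, in the background on every array, had log2 differences of -1.468 and -1.131. With KO1 left out the sign turned for Col3a1 (-0.30), Col5a3 (-0.72), Col8a1 (-0.20) and Col6a1 (0.064), whose RASSF9-/- arrays lie on opposite sides of WT. The counts by size did depend on the setting. The number at least 2-fold lower on both arrays was 3 and became 1 of only 5 genes kept at the 75th percentile (against 1.64% of all genes kept), 1 with the pseudocount (2.05%), 5 with the mean of probe sets (5.17%), 8 at 1.5-fold (9.71%) and 0 at 3-fold (2.38%). The number higher was 5 and became 0 of 5 at the 75th percentile (1.85%), 0 with the pseudocount (2.12%), 0 with signals raised (1.40%) and 3 at 3-fold (3.69%). The median of -0.28 became -0.53 over the 5 genes at the 75th percentile, and over all 38 it was -0.476 with the mean of probe sets, -0.163 with the pseudocount and 0 with signals raised. Leaving out KO1 gave 13 genes 2-fold lower, 6 higher and a median of -0.354, against 15.8% and 12.7% of all genes. Leaving out KO2, which has another date than WT, gave 6 lower, 9 higher and a median of -0.051, against 11.2% and 15.0%. These counts include dim probe sets, and the cause was not tested. No paired analysis was possible because there is 1 WT array.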
